A study of Mus musculus with 4 samples.

Results

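Subunits of the GABA-A receptor, the chloride channel that opens when the transmitter GABA binds, were followed in dorsal root ganglia of mice, which hold the cell bodies of sensory neurons. The genes were Gabra2, Gabra3, Gabra5, Gabrb1, Gabrb2, Gabrg1 and Gabrg3, 7 in all. They are 7 of the 18193 genes that the annotation names on the array, and were represented by 23 of the 45101 probe sets on the array, taken wherever the platform annotation gave one of these symbols alone. Affymetrix arrays, 4 in number, had been hybridised with total RNA of fresh ganglia. Of these, 2 measured the level titled sample 2 (the sample-2 level) and 2 the level titled sample 1 (the sample-1 level). The labels state no treatment other than dissection, and give no strain, genotype, age or sex, do not say which spinal levels were meant and leave unstated whether 2 arrays of 1 level stand for different animals. P-values therefore cover nothing beyond the variation among these arrays, and that variation may be technical.

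GABA-A receptors are assembled from alpha, beta and gamma subunits, with other subunits in some receptors. GABA binds where an alpha and a beta subunit meet, and the alpha and gamma subunits set much of a receptor's drug sensitivity and its place in or outside synapses. Sensory neurons keep a high internal chloride concentration, so that GABA depolarises them. At their endings in the spinal cord this gives presynaptic inhibition of the signal they carry.

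None of the subunit genes passed the test between the levels. Gabrb1 had the largest fitted difference, with an average intensity about 2.06 times as high at the sample-2 level on its brightest probe set. Both probe sets of Gabra3 also averaged higher there, and the probe sets of Gabra5 (1) and Gabrg1 (2) averaged lower. The tested probe sets of Gabra2 differed by 0.02 to 0.20 on the log2 scale, and those of Gabrb2 by -0.18 to 0.30. Gabrg3 lay below the level needed for testing throughout. Of the 17 probe sets tested, 0 passed an adjusted p of 0.05 (limma over 27022 probe sets, Benjamini-Hochberg adjustment), where 0.622% of all tested probe sets did (0.222% as higher calls, 0.4% as lower ones). An unadjusted p under 0.05 was found for 4 of the 17, against 10.9% of all tested probe sets.

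In 4 of the 6 genes tested, the arrays of the levels did not overlap on the brightest tested probe set. Among all tested probe sets 41.2% did not overlap, a share over single probe sets and not over genes. None of the 4 passed. The probe sets report transcripts and not promoters. The start regions of these 4 genes are printed here, so that the genes can be identified by sequence. Each is a RefSeq window of 300 bases on GRCm38.p6, 250 before and 50 after an annotated start, read 5′ to 3′ on the gene's strand. For Gabrb1 and Gabra3, which have more than 1 window, that of the outermost start is shown. The window of Gabra5, its only one, does not lie at the outermost start of the gene. Capitals mark a match to a TATA box. The windows are chr5:71657671-71657970 on the plus strand for Gabrb1, and on the minus strand chrX:72656870-72657169 for Gabra3, chr7:57510010-57510309 for Gabra5 and chr5:70842568-70842867 for Gabrg1.
Gabrb1: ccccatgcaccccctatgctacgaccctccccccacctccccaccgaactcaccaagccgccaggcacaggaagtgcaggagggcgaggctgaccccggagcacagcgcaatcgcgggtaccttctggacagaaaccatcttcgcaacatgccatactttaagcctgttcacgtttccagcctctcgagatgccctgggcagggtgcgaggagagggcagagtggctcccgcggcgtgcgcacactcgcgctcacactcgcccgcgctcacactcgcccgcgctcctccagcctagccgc
Gabra3: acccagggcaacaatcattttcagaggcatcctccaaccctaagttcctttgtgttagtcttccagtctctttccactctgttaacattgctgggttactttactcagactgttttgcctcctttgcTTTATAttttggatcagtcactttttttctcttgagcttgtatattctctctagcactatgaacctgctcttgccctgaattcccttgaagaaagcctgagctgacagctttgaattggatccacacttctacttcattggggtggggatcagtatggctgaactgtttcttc
Gabra5: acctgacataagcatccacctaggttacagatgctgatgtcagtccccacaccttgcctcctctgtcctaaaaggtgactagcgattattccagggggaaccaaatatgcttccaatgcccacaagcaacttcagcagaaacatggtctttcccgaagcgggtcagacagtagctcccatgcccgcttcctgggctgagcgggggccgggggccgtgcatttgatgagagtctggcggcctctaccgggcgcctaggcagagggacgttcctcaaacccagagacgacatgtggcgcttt
Gabrg1: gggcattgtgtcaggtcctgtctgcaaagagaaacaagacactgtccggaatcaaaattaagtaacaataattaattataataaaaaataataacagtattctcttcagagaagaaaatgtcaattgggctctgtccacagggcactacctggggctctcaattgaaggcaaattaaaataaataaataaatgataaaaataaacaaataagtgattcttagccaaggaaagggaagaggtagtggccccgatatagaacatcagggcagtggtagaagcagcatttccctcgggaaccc

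The Gabrb1 window held 25 CpG dinucleotides and the Gabra5 window 13, against 3 for Gabrg1 and 0 for Gabra3. The median was 7 over 32851 promoter windows of the RefSeq table, taken at full length and with 1 chromosome left out. All 7 genes matched the table, with 11 windows in all. On either strand, 4 motifs were searched. The TATA box, TATAAA, was found in 3 of the 11 windows and in 13.6% of the 32851 windows. The overlapping windows of Gabra3 share 1 match, so the 3 windows hold 2 sites. The GC box, GGGCGG, was found in 3 of 11 and in 35.7%. The cAMP response element, TGACGTCA, was found in 0 of 11 and in 1.79% of the 32851, and an EGR site, GCGGGGGCG, in 0 of 11 and in 2.91%. None of these motifs overlapped another in the printed windows. A match describes the letters only. In the same annotation, Gabrg1 lies beside Gabra2, Gabrb1 beside Gabra4 and Gabrg3 beside Gabra5 among protein-coding genes, Gabrb2 beside Gabra6, and Gabra3 beside Gabrq.

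**Figure D1:**
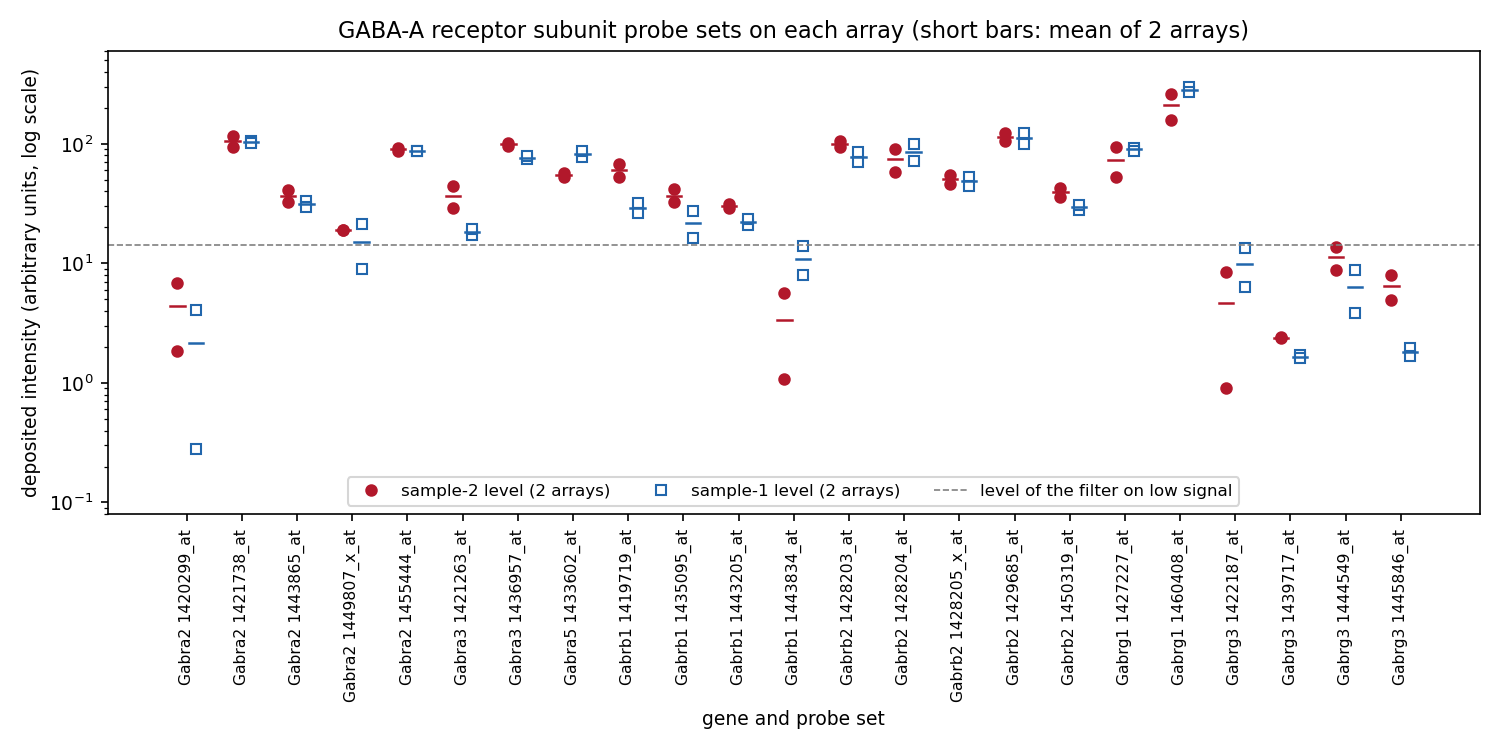
Deposited intensity (log axis, arbitrary units) of all 23 probe sets of the 7 subunit genes on each of the 4 arrays, with sample-2 level arrays as filled circles, sample-1 level arrays as open squares and a short bar for the mean of 2 arrays. The 6 probe sets whose average of log2(intensity + 16) lay under the filter, drawn dashed at the matching intensity of 14.3, include all 4 of Gabrg3, and probe sets of 1 gene differ widely in brightness.

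The intensities do not show which subunits prevailed in these ganglia. Each probe set binds its target with its own strength, and even probe sets of the same gene differed: at the sample-1 level those of Gabra2 averaged between 2.16 and 103, and those of Gabrb1 between 10.98 and 29.2. Levels were therefore compared between arrays within a probe set and not between genes, and no subunit composition is given. Of the 23 probe sets, 17 lay at or above the filter on low signal (a mean of log2(intensity + 16) over the 4 arrays at or above that of an intensity of about 14.3) and were tested. The other 6, of Gabrg3 (4), Gabra2 (1) and Gabrb1 (1), stayed between 0.280 and 13.9 on every array. In ganglia measured as bulk RNA, fewer cells of a type and less RNA per cell cannot be told apart.

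Gabra2 encodes an alpha subunit found at many synapses in the brain. On its brightest probe set, 1421738_at, it measured 94.9 and 116 at the sample-2 level, against 106 and 101 at the sample-1 level. The arrays of the levels overlapped, and the means of 106 ± 15.1 and 103 ± 3.80 (SD, n = 2 each) were closer than the arrays of a level. The fitted difference was 0.02 ± 0.15 (log2(intensity + 16) ± SE, sample-2 level minus sample-1 level), with a 95% interval from -0.31 to 0.35 and an adjusted p of 0.98 (limma). In fold terms the interval ran from 0.807 to 1.28 on that scale. A second bright probe set, 1455444_at, measured 87.2 and 92.0 at the sample-2 level, against 87.4 and 86.7 at the sample-1 level, and its fitted difference of 0.03 had an interval from -0.29 to 0.36. The dimmer probe sets 1443865_at and 1449807_x_at differed by 0.15 and 0.20, within intervals that held 0, and for both the arrays of the levels overlapped. The suffix of the second of these marks probes that can bind more than 1 transcript. The untested probe set 1420299_at measured 1.83 and 6.91 at the sample-2 level, against 0.28 and 4.05 at the sample-1 level.

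Gabra3 encodes an alpha subunit known from monoamine neurons and from developing brain. Its brighter probe set, 1436957_at, measured 96.1 and 102 at the sample-2 level, against 74.7 and 78.7 at the sample-1 level. Both sample-2 arrays lay above both sample-1 arrays. The difference was 0.31 ± 0.15 (SE), with an interval from -0.01 to 0.64 and an adjusted p of 0.481 (limma). The dimmer probe set, 1421263_at, measured 29.0 and 44.3 at the sample-2 level, against 17.2 and 19.3 at the sample-1 level. Here too the arrays did not overlap, and the difference was 0.61 ± 0.24 (interval 0.08 to 1.13, adjusted p = 0.374, limma). The probe sets of Gabra3 thus had the same direction, and neither passed.

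Gabra5 encodes an alpha subunit of receptors that lie largely outside synapses and carry tonic current. Its probe set, 1433602_at, measured 52.3 and 56.5 at the sample-2 level, against 76.9 and 86.3 at the sample-1 level. Both sample-2 arrays were the lower ones, with means of 54.4 ± 2.93 and 81.6 ± 6.66 (SD, n = 2 each). The gap between the means, a ratio of 0.667, was larger than the spread within a level. The fitted difference of -0.47 ± 0.17 (SE) had an interval from -0.83 to -0.11 and an adjusted p of 0.293 (limma). With 1 probe set for the gene, no other measurement on the arrays bears on it. Its neighbour Gabrg3 had no tested probe set.

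Gabrb1 encodes a beta subunit, which contributes to the GABA binding site and to the pore. On 1419719_at it measured 67.4 and 52.9 at the sample-2 level, against 32.2 and 26.3 at the sample-1 level. The lower sample-2 array was well above the higher sample-1 array, and the means were 60.2 ± 10.3 and 29.2 ± 4.19 (SD, n = 2 each). The fitted difference was 0.75 ± 0.20 (SE), with an interval from 0.31 to 1.19. Its unadjusted p of 0.00315 ranked 562 among the 27022 probe sets, and its adjusted p was 0.151 (limma). Because the probe set is dim, this difference depends on the pseudocount, and it was 1.013 with a pseudocount of 1 (adjusted p = 0.162) and 0.41 with 64 (adjusted p = 0.145).

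Gabrb1 had 2 more tested probe sets, which had the same direction with smaller differences. 1435095_at measured 32.3 and 41.5 at the sample-2 level, against 27.7 and 16.2 at the sample-1 level (0.49 ± 0.24 SE, adjusted p = 0.498, limma). 1443205_at measured 29.2 and 31.1 at the sample-2 level, against 21.0 and 23.7 at the sample-1 level (0.27 ± 0.23 SE, adjusted p = 0.736, limma). For both, the sample-2 arrays lay above the sample-1 arrays. The untested probe set 1443834_at ran the other way, at 1.08 and 5.65 at the sample-2 level, against 13.9 and 8.05 at the sample-1 level, below the filter on all arrays.

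Gabrb2 encodes another beta subunit, one of the most widespread in the brain. Its brightest probe set, 1429685_at, measured 124 and 105 at the sample-2 level, against 122 and 99.98 at the sample-1 level. The arrays of the levels interleaved, and the difference was 0.04 ± 0.15 (SE), with an interval from -0.29 to 0.38 and an adjusted p of 0.957 (limma). Array 1 was the brighter one at both levels on this probe set and on 1428205_x_at. On 1428204_at array 2 was the brighter one at both levels.

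Among the other probe sets of Gabrb2, 1428203_at measured 93.6 and 105 at the sample-2 level, against 85.4 and 70.6 at the sample-1 level, a difference of 0.30 with an adjusted p of 0.538 (limma). 1450319_at measured 35.8 and 42.9 at the sample-2 level, against 28.1 and 31.0 at the sample-1 level, a difference of 0.28. On these probe sets the arrays did not overlap, whereas 1428204_at and 1428205_x_at, with differences of -0.18 and 0.04, overlapped. The 5 probe sets of Gabrb2 thus disagreed in direction, with 4 above 0 and 1 below, and 0 passed.

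Gabrg1 encodes a gamma subunit known in the brain from glial cells as well as neurons. Its brighter probe set, 1460408_at, measured 261 and 158 at the sample-2 level, against 296 and 272 at the sample-1 level. Both sample-2 arrays were below the sample-1 arrays, the second far more than the first. The difference was -0.45 ± 0.18 (SE), with an interval from -0.84 to -0.06 and an adjusted p of 0.374 (limma). The value rested on single arrays. Without sample-2 array 1 the difference was -0.78, and without sample-2 array 2 it was -0.12. Each of these fits left 1 array at the sample-2 level, so no spread within it could be measured.

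The other Gabrg1 probe set, 1427227_at, had the same array out of step. It measured 93.4 and 52.7 at the sample-2 level, against 92.5 and 87.6 at the sample-1 level, and its difference of -0.29 had an interval from -0.74 to 0.16. Without sample-2 array 2 the difference was 0.04. On both probe sets sample-2 array 2 stood at 64.1% and 64.6% of the mean of the 4 arrays, and the other arrays at 106% to 120.1%.

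Several summed marker lists were also lowest on that array. In percent of the mean of the 4 arrays, fibroblasts and meninges stood at 72.4%, Schwann cells at 79.9% and large myelinated neurons at 82.7%. Satellite glia stood at 95.9%, close to the next array at 99.9%. Skeletal muscle stood at 38.2%, with 58.3% on sample-2 array 1 and 47.9% on sample-1 array 1. Its mean was raised by sample-1 array 2, at 255.6%. The sums of general sensory neuron, nociceptor and spinal cord markers were not lowest on sample-2 array 2. The sum of neutrophil markers was highest there. Schwann cells and satellite glia are the glia of the ganglion. The summed intensity of 7 tested Schwann cell markers was 17069 and 13319 at the sample-2 level, against 18872 and 17454 at the sample-1 level. Of these 7 markers, 1 was lower past the threshold, Pmp2, a myelin protein that binds fatty acids. Of the 9 tested markers of satellite glia, which surround the neuron cell bodies, 0 passed, with the largest differences for Slc1a3 (-0.48) and Ednrb (-0.22), and their sum was 14775 and 13792 at the sample-2 level, against 14613 and 14367 at the sample-1 level. The part of these cell types in the Gabrg1 values was not tested.

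Gabrg3 encodes a further gamma subunit. On 1444549_at it measured 13.7 and 8.79 at the sample-2 level, against 3.85 and 8.80 at the sample-1 level, and on 1422187_at 8.41 and 0.908 against 13.5 and 6.32. On both the arrays overlapped, and every value lay below the filter. On 1445846_at it measured 4.98 and 8.01 at the sample-2 level, against 1.96 and 1.69 at the sample-1 level, and on 1439717_at 2.40 and 2.39 against 1.70 and 1.61. A low intensity has no detection call here, so these values do not show whether the transcript was present. Without the filter, 0 of the 23 probe sets passed, and the smallest adjusted p among them was 0.469 (limma), for Gabrb1. In that fit 2 of the 23 had an unadjusted p under 0.05, and the share over all its probe sets was not taken, so the count cannot be placed.

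**Figure D2:**
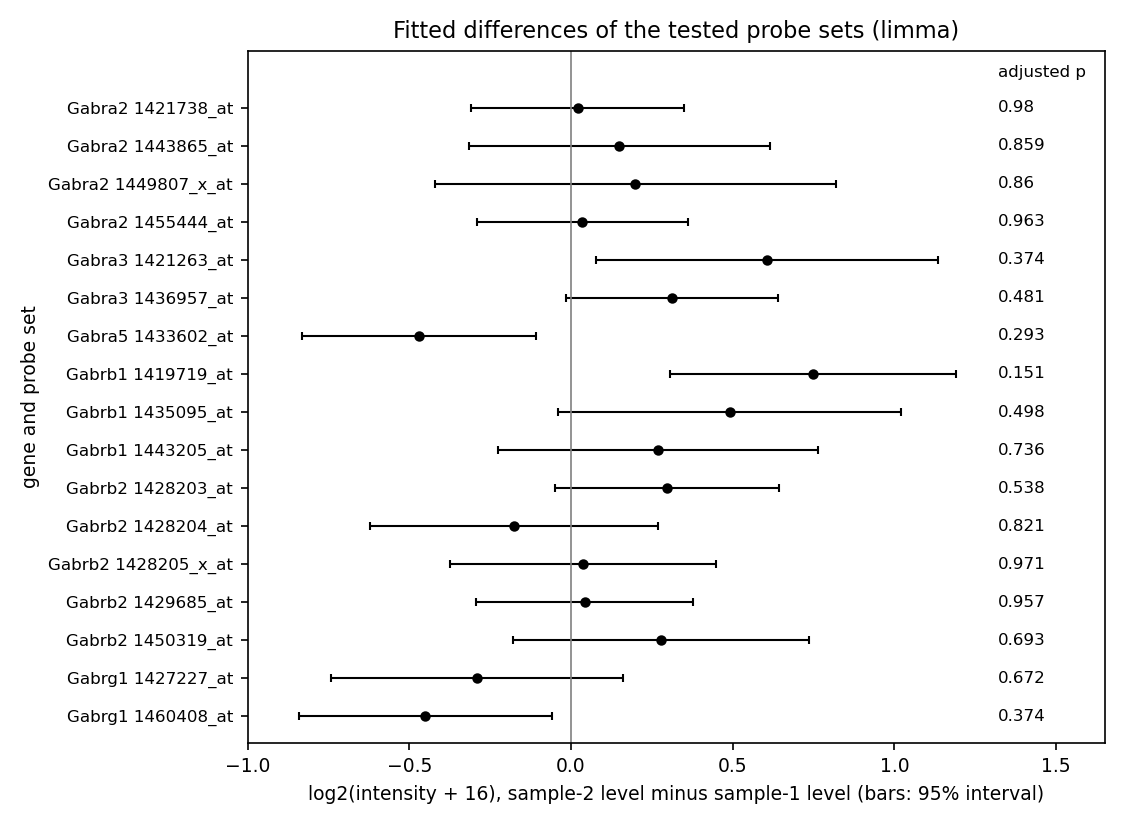
Fitted difference of each of the 17 tested probe sets, sample-2 level minus sample-1 level, on the log2(intensity + 16) scale (x axis), with 95% intervals from limma and the adjusted p at the right. Gabrb1, Gabra3, Gabra5 and Gabrg1 each have a probe set whose interval leaves out 0, and no adjusted p is under 0.151.

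Counted over probe sets, 13 of the 17 tested differences lay above 0 and 4 below, with a median of 0.15, against 51.1% above 0 and a median of 0.00 among all tested probe sets. Probe sets of 1 gene share their transcript, and by the brightest tested probe set of each gene 4 of 6 lay above 0, with a median of 0.03. The arrays of the levels did not overlap for 9 of the 17, where they did not for 41.2% of all tested probe sets. In 7 of these 9 the sample-2 level was the higher one (21.1% of all tested probe sets) and in 2 the lower one (20.1%).

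The genes most like Gabrb1 in their pattern over the 4 arrays were found by the Euclidean distance between log2(intensity + 16) values, each centred on its mean, among 24075 tested probe sets with 1 symbol. Sfpq, a splicing factor, was nearest at a distance of 0.0584. It measured 45.3 and 37.1 at the sample-2 level, against 20.9 and 16.6 at the sample-1 level. St6gal2, a sialyltransferase, followed at 0.0948, and Rasgrp1, an activator of Ras, at 0.113. Of these, Rasgrp1 was higher past the threshold (0.77 ± 0.13 SE, adjusted p = 0.0263, limma), where Gabrb1, with a similar difference, had a larger SE. As these genes were picked for likeness over 4 values, a direction and size like those of Gabrb1 were given by the search.

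Of the 12 other GABA-A receptor subunit genes listed, 8 were analysed, with 12 probe sets, and 4 were not analysed here. Of the 8, 2 had a tested probe set and 6 lay below the filter. Gabra4, an alpha subunit and the neighbour of Gabrb1, measured 16.1 and 22.3 at the sample-2 level, against 16.2 and 10.03 at the sample-1 level (0.28 ± 0.27 SE, adjusted p = 0.782, limma). Gabrp, the pi subunit, known mainly from epithelia, measured 11.3 and 32.95 at the sample-2 level, against 7.29 and 23.2 at the sample-1 level (adjusted p = 0.838). For both genes the arrays of the levels overlapped.

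The genes that act around the receptor were taken as 5 groups with 47 genes on the arrays, of which 40 were tested by their brightest tested probe set, 0 passed in either direction and the median difference was -0.02. Slc12a2, the cotransporter NKCC1 that loads sensory neurons with chloride, measured 1279 and 1239 at the sample-2 level, against 1304 and 1275 at the sample-1 level. The arrays overlapped, and the difference of -0.03 had an interval from -0.20 to 0.13 (adjusted p = 0.921, limma). Slc12a5, the chloride extruder KCC2 of central neurons, measured 24.3 and 26.0 at the sample-2 level, against 13.4 and 28.5 at the sample-1 level. Among the 11 tested chloride transport genes 3 lay above 0 and 8 below. The largest difference was that of Ano1, a calcium-activated chloride channel of sensory neurons, at 30.3 and 31.8 at the sample-2 level, against 69.6 and 64.2 at the sample-1 level. It fell short of the threshold (-0.82 ± 0.19 SE, adjusted p = 0.0808, limma). Stk39, the kinase SPAK that activates NKCC1, measured 693 and 575 at the sample-2 level, against 798 and 791 at the sample-1 level (adjusted p = 0.229).

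Genes for receptor anchoring and transport differed little by their brightest tested probe sets. Of 18 tested, 4 lay above 0 and 14 below, with a median difference of -0.03. Gphn, which encodes the anchoring protein gephyrin, measured 320 and 384 at the sample-2 level, against 375 and 320.1 at the sample-1 level on its brightest probe set, and the arrays overlapped. By brightest probe sets, Plcl1, a binding protein of the receptor, Shisa7, an auxiliary protein, and Clptm1, a trafficking protein, had the largest differences of the 18. All were -0.15, with adjusted p of 0.836, 0.875 and 0.642 (limma).

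Of 10 genes on the arrays for GABA synthesis, transport and breakdown, 7 were tested. Their median difference was 0.19, with 6 above 0 and 1 below. The list mixes genes that make, carry and break down GABA, so it gives no direction for the supply of GABA. Gad1, a GABA-synthesising enzyme, measured 25.9 and 21.4 at the sample-2 level, against 17.4 and 24.4 at the sample-1 level, and both probe sets of Gad2, the other such enzyme, lay below the filter. Maob, a monoamine oxidase, measured 65.4 and 64.2 at the sample-2 level, against 41.4 and 48.0 at the sample-1 level (adjusted p = 0.421, limma). Slc6a13, a GABA transporter known from meninges, measured 31.2 and 18.4 at the sample-2 level, against 40.1 and 32.0 at the sample-1 level (adjusted p = 0.635). Its direction was that of the 10 fibroblast and meningeal markers, all below 0 and 7 of them lower past the threshold (Ptgds, Mfap5, Col1a2 and Lum with the largest differences), whose sum was 9027 and 8486 at the sample-2 level, against 15585 and 13763 at the sample-1 level. Their part in the Slc6a13 values was not tested.

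Metabotropic GABA-B and glycine receptor genes did not pass either. Gabbr1, a GABA-B receptor subunit, measured 1669 and 1504 at the sample-2 level, against 1516 and 1470 at the sample-1 level (0.09 ± 0.08 SE, adjusted p = 0.768, limma). Kctd16, an auxiliary GABA-B subunit, measured 87.1 and 86.2 at the sample-2 level, against 50.2 and 64.8 at the sample-1 level, without overlap (0.49 ± 0.17 SE, adjusted p = 0.286). Kctd8, another, differed by 0.09. Of the 5 glycine receptor genes on the arrays, Glrb alone was tested, at 1026 and 1116 at the sample-2 level, against 981 and 1234 at the sample-1 level.

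**Figure D3:**
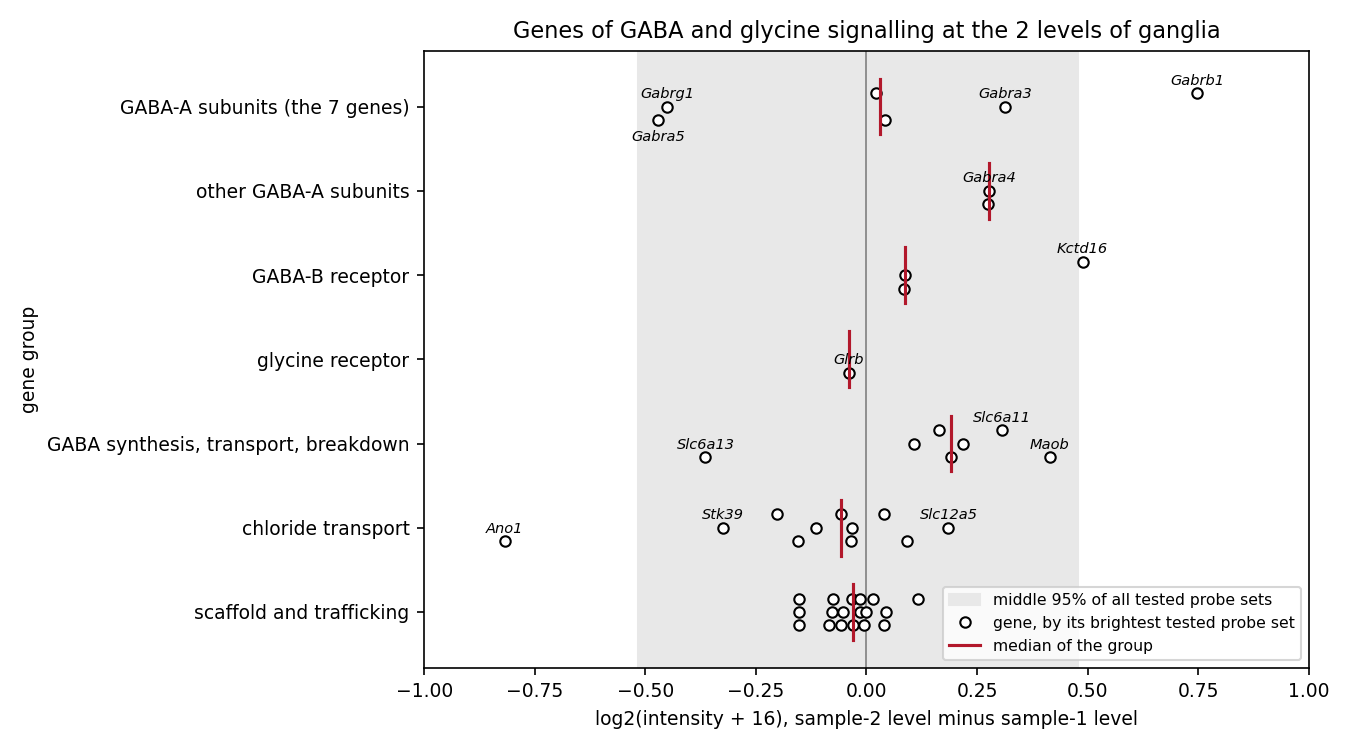
Difference between the levels (x axis, log2(intensity + 16), sample-2 level minus sample-1 level) for each tested gene of GABA and glycine signalling, by its brightest tested probe set, in 7 groups, with the group median as a bar. The grey band spans the middle 95% of all tested probe sets, from -0.52 to 0.48, and Gabrb1, Kctd16 and Ano1 lie outside it.

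Markers of sensory neurons were above the filter, and several other marker lists differed between the levels. All 10 general sensory neuron markers were tested, 0 passed, Slc17a6 (0.27) and Pou4f1 (0.20) differed most, and their sum was 43404 and 40833 at the sample-2 level, against 39475 and 40324 at the sample-1 level. Of 7 small nociceptor markers 2 were higher past the threshold, Tac1 and Trpv1, and their sum was 12942 and 12707 at the sample-2 level, against 10299 and 10085 at the sample-1 level. Of 8 markers of large myelinated neurons 3 were lower, Pvalb, Calb2 and Cntnap2, while Ntrk2 of the same list differed by 0.47 the other way (adjusted p = 0.0784, limma), so that 2 lay above 0 and 6 below. That sum was 7329 and 6527 at the sample-2 level, against 8477 and 9220 at the sample-1 level. The sums of general sensory neuron, nociceptor and neutrophil markers were higher without overlap, the direction of Gabrb1 and Gabra3. For the general neuron sums the gap was narrow, at 40833 against 40324 on the nearest arrays. The sums of large neuron, Schwann cell and fibroblast markers were lower without overlap, the direction of Gabra5 and the brighter Gabrg1 probe set. Among all tested probe sets, taken singly, 41.2% did not overlap, and a sum follows its brightest genes. With lists shifted both ways, any subunit that differed shared its direction with some list. The part of these shifts in the subunit values was not tested.

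Spinal cord tissue, which is rich in these receptors and can come with a dissection, was checked by 9 markers. Of these 6 lay below the filter, namely Mog, Olig1, Olig2, Slc6a5, Chat and Mnx1. The 3 others were Gfap (a difference of -0.24), Mobp and Aqp4, and their sum was 117 and 134 at the sample-2 level, against 107 and 156 at the sample-1 level, and the levels overlapped. Of 8 neutrophil markers 6 were higher past the threshold, Lcn2, S100a9, Camp and Ngp by the most, with sums of 6625 and 8329 at the sample-2 level, against 3303 and 3954 at the sample-1 level. The sum of 10 skeletal muscle markers was 1956 and 1281 at the sample-2 level, against 1607 and 8578 at the sample-1 level, so that sample-1 array 2 stood apart, and 1 of the 10, Myh2, was lower past the threshold. Without it, the difference was 0.65 for Gabrb1, -0.40 for Gabra5, -0.51 for Gabrg1 and 0.34 for Gabra3, each by its brightest probe set.

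**Figure D4:**
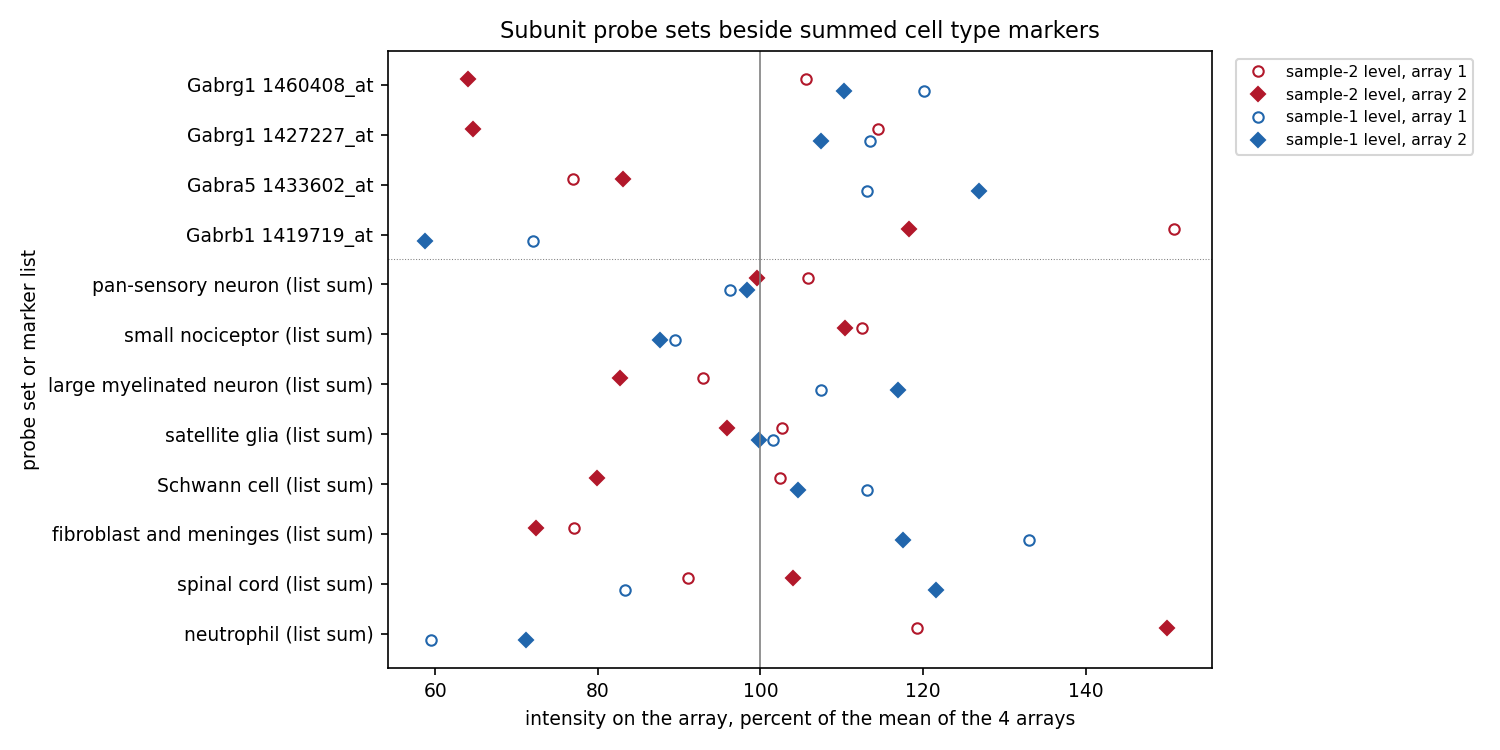
Intensity on each array as a percent of the mean of the 4 arrays (x axis), for 4 subunit probe sets above the dotted line and for the summed intensity of 8 marker lists below it, with open circles for array 1 and filled diamonds for array 2 of each level. Sample-2 array 2 is the lowest array for both Gabrg1 probe sets, at 64.1% and 64.6%, and among the sums drawn also for fibroblasts and meninges, at 72.4%, Schwann cells, at 79.9%, large myelinated neurons, at 82.7%, and satellite glia, at 95.9%.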

How the data were processed

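Total RNA of mouse dorsal root ganglia was measured on 4 Affymetrix arrays, 2 per level, grouped by their titles. The authors deposited 1 linear intensity value per probe set. Each array's mean without its highest and lowest 2% of values was 150.0, so the deposited intensity was on 1 scale across arrays. The scaling software is not given in the sources used here.

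Values were taken as log2(intensity + 16), which shrinks differences of dim probe sets. After leaving out 64 control probe sets and those whose mean on this scale lay under its 40th percentile (that of an intensity of about 14.3), 27022 were fitted with limma 3.58.1 in R 4.3.3 (lmFit, eBayes with an intensity trend, 2 residual and 9.71 prior degrees of freedom), with the sample-1 level subtracted from the sample-2 level, and adjusted by Benjamini-Hochberg with a threshold of 0.05. The number of arrays limits the precision. Symbols came from the platform annotation. 1 probe set that it gives to Gabrg3 and another transcript was not counted. Every subunit probe set was named, and of each other group the members past the threshold, at most 4, or the 2 with the largest difference, besides genes chosen for their function. Outside that rule, Mog, Olig1, Olig2, Slc6a5, Chat and Mnx1 are named for a count, Ntrk2 and Aqp4 beside their lists, Clptm1 for a tie, and Gabrd after its values were seen. Promoter windows came from RefSeq (GRCm38.p6). The genes and lists were chosen with earlier results of these data known. Alternatives were other pseudocounts, filters, normalizations, spread estimates and a minimum fold, leaving out probe sets with shared-transcript suffixes or each array, gene means, and the array number as a block.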

Additional observations from a re-analysis of the deposited data

How the results depend on the processing

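Over all probe sets, 168 passed with the settings used, 4 without the filter, 104 with each array centred on its median, 1 without the intensity trend, 10 with a minimum of 1.5-fold, 793 with the array number as a replicate block, and 102 to 241 with each array left out in turn. Of the subunit probe sets 0 passed, 1 (Gabrg1 1460408_at, adjusted p = 0.0499, limma) with the replicate block, and 0 to 1 with each array left out, the 1 being the same probe set without sample-2 array 1. With the block Gabrb1 1419719_at had an adjusted p of 0.0576. Of the surrounding pathway genes 0 passed, and 2 with the block, Ano1 (adjusted p = 0.0273) and Stk39 (adjusted p = 0.0459). Arrays share only a number: the deviations of same-numbered arrays correlated at 0.03, and no source says that a number marks a shared animal or day.

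Many of the 228 fits of a subunit probe set under an alternative could not change its direction. Other filters, the block, the spread estimate, the minimum fold and leaving out suffixes kept the fitted difference as it was. A change of sign came in 10 fits, all 10 with an array left out. The differences then ranged from -0.11 to 0.15 for Gabra2 1421738_at, -0.089 to 0.49 for Gabra2 1449807_x_at, -0.44 to 0.087 for Gabrb2 1428204_at, -0.064 to 0.14 for Gabrb2 1428205_x_at, -0.084 to 0.17 for Gabrb2 1429685_at and -0.63 to 0.045 for Gabrg1 1427227_at; the cause was not tested. Those of Gabrb1 ranged from 0.61 to 0.89 for 1419719_at, 0.27 to 0.71 for 1435095_at and 0.22 to 0.32 for 1443205_at, and those of Gabra5 from -0.54 to -0.40. With a filter at the 60th percentile 9 of the subunit probe sets were left to test. None of these was of Gabrb1, and no further GABA-A subunit gene was left. With gene means, 0 of the surrounding genes passed and Gabrb1 differed by 0.50 (adjusted p = 0.317). Low signal limits Gabrg3 and 6 further subunit genes.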

Other observations

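Gabrd, the delta subunit of receptors outside synapses, was not tested because both its probe sets averaged below the filter on the log2(intensity + 16) scale. On 1449980_a_at it measured 13.1 and 17.6 at the sample-2 level, against 1.56 and 2.76 at the sample-1 level, without overlap. In the fit without the filter its difference was 0.78 ± 0.20 (SE), with an unadjusted p of 0.00591 and an adjusted p of 0.41 (limma). The other Gabrd probe set, 1457763_at, measured 12.9 and 25.5 at the sample-2 level, against 17.4 and 4.13 at the sample-1 level, so that the arrays overlapped. The gene was chosen after its values were seen.

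The probe sets of Gabbr1 did not all give the same picture. 1422051_a_at measured 459 and 457 at the sample-2 level, against 338 and 387 at the sample-1 level (0.33 ± 0.11 SE, adjusted p = 0.24, limma), while 1437188_at measured 235 and 257 at the sample-2 level, against 255 and 287 at the sample-1 level (-0.13 ± 0.12 SE, adjusted p = 0.759). The probe set that the annotation gives to both Gabrg3 and another transcript measured 18.5 and 28.7 at the sample-2 level, against 12.4 and 10.8 at the sample-1 level (adjusted p = 0.534), and cannot be assigned to either.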
